A study of Mus musculus with 24 samples.

Results

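The comparison sets HBC-3 cells after 2 days on Matrigel against undifferentiated HBC-3 cells of day 0, and it rests on 6 of the 24 arrays of a time course, the 3 titled day 2 and the 3 titled day 0. HBC-3 is a single mouse hepatoblast line, so every array describes the same cell line. Trypsin and replating on plastic in HBM removed the STON+ feeder layer, and undifferentiated cells were taken for RNA the next morning; per the labels such cells gave both the day 0 sample and the Cy3 reference of every array. The Cy5 channel held amplified RNA of the day named. The labels do not separate the Matrigel surface from time in culture or a change of medium, so these cannot be told apart. The labels do not say if arrays A, B and C of 1 day are separate cultures, so a p-value here reflects how far these arrays vary, and that variation could be purely technical.

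Hepatoblasts are the fetal liver progenitors that give rise to hepatocytes and to bile duct cells. Matrigel is a gel of basement membrane proteins rich in laminin and collagen IV, which cells bind through integrins; on such a soft matrix epithelial cells commonly round up, lose the stress fibres and large focal adhesions they build on plastic, and slow their division. The genes are therefore taken below in the order of the largest differences, the cell division programme, the lysosome and its partners, adhesion and the cytoskeleton, matrix and signalling, and liver markers.

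Values are log2 ratios of sample over reference, each array centred on its median, so 0 is the reference level and a difference of 1 is a doubling. The base and the numerator of the deposited ratios are likely ones, which the sources used here do not state. The 3 day 0 arrays should sit near 0 for every gene, since both channels held undifferentiated cells, but they did not form 1 group. Arrays A and B of day 0 correlated at 0.755 over features, array C correlated with A at -0.343 and with B at 0.084, and the SDs of the 3 were 0.473, 0.433 and 0.332. The 3 day 2 arrays correlated with each other at 0.801 to 0.918, with SDs of 0.626 to 0.749. Because of the negative correlation the direction of the day 0 arrays is not settled. Results are also given with every day 0 array turned in sign, which leaves that correlation as it is. Counts over all units are also given with array C alone turned. A further alternative, chosen after seeing the data, leaves out day 0 arrays A and B so that C alone is the baseline. Ratios carry no expression level, so the label of the cells could not be checked against marker levels, and fewer cells of a type and less RNA per cell cannot be told apart.

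At day 2, 1818 of 10639 tested units differed from day 0, which is 17.1% of units. A unit is a named gene or a feature without a single gene name, and called means a Benjamini-Hochberg adjusted p under 0.05 in limma. Of them 963 (9.05%) were higher and 855 (8.04%) lower. Among the 5660 named genes, 577 (10.2%) were called higher and 396 (7.0%) lower. The median difference over all units was 0.03. Differences ran large, with 674 called units higher and 526 lower by more than 1 on the log2 scale, and 34 higher and 13 lower by more than 3. Of the 1700 called units with values on all 6 arrays, 98.6% had no overlap between the days. Such separation was common, called or not: of all 9831 tested units with 6 values, 2430 lay wholly above day 0 and 2298 wholly below.

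The called units did not rest on day 2 alone. Units called higher had medians of -0.43, -0.37 and 0.03 on arrays A, B and C of day 0, against 0.89, 1.11 and 0.90 on those of day 2. Units called lower had day 0 medians of 0.30, 0.33 and -0.03 and day 2 medians of -0.91, -0.93 and -0.87. Day 0 arrays A and B thus lay on the other side of 0 from day 2, whereas array C lay near 0. With every day 0 array turned in sign, 532 units were called higher and 577 lower, and 320 of the 963 and 327 of the 855 were called the same way. With array C alone turned, 1267 were called higher and 1144 lower, and 853 of the 963 and 752 of the 855 were called the same way. With the reference channel itself as the baseline, 834 and 727 of them were called the same way. Against day 0 array C alone, 70 units were called higher and 76 lower. Leaving out 1 array at a time gave 494 to 1126 higher and 355 to 1045 lower: the counts fell by over 1.5 times without any of day 2 A (635 and 477), day 2 B (514 and 398), day 2 C (632 and 456), day 0 A (494 and 408) or day 0 B (494 and 355).

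**Figure D1:**
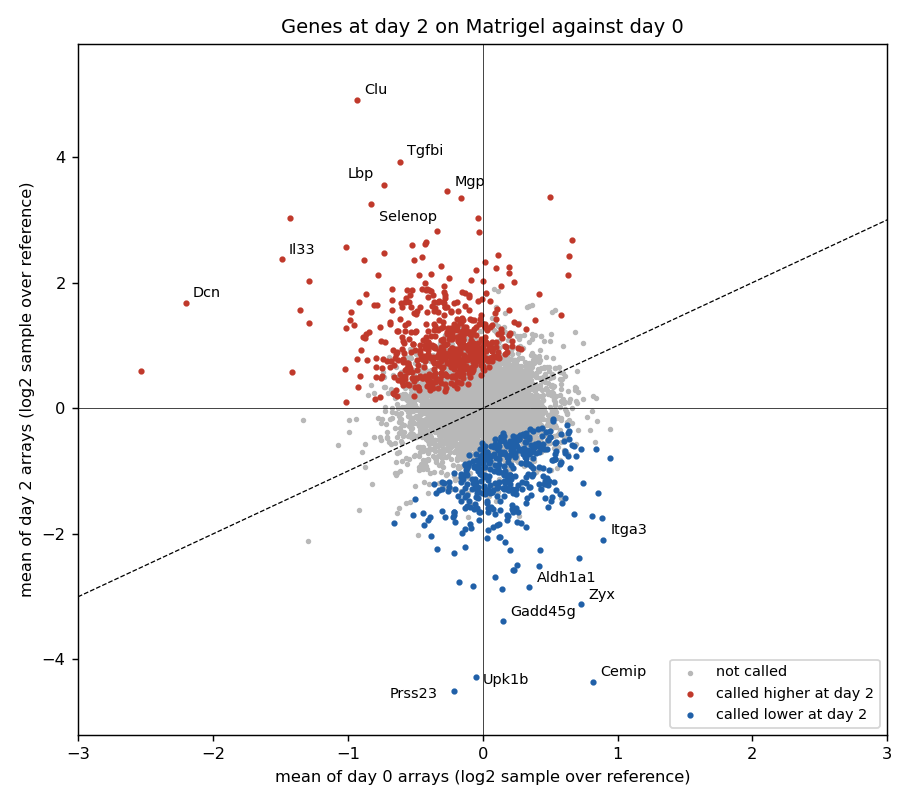
Each point is 1 of the 5660 tested genes, with its mean over the 3 day 0 arrays on the horizontal axis and over the 3 day 2 arrays on the vertical axis, both as log2 sample over reference; red and blue mark the 577 genes called higher and the 396 called lower, grey the rest, and the dashed line is equality. Day 2 means spread much wider than day 0 means, and Dcn stands out as a called gene whose distance from equality owes more to day 0 (mean -2.20) than to day 2 (mean 1.68).

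Among genes with values on all 6 arrays and no overlap between the days, the rises at day 2 were largest in Clu, Tgfbi, Lbp and Selenop, all of which encode secreted proteins. Clu, the extracellular chaperone clusterin, read -1.04, -1.45 and -0.30 on the day 0 arrays and 4.59, 5.61 and 4.54 on the day 2 arrays. The rise was 5.84 ± 0.54 (log2, SE, n = 3 per day, adjusted p 8.85e-07 in limma), a 57.4-fold difference. Tgfbi, a matrix protein that binds integrins and is induced by TGF-beta, read -0.59, -0.95 and -0.30 at day 0 and 3.23, 4.73 and 3.81 at day 2, a rise of 4.54 ± 0.49 (adjusted p 1.2e-05 in limma). Lbp, the plasma protein that binds lipopolysaccharide, rose by 4.29 ± 0.56, with day 2 array B (4.70) well above A and C (2.99 and 2.98). Selenop, the selenium transport protein made by liver, rose by 4.07 ± 0.47, from -0.78, -1.14 and -0.56 to 2.83, 3.77 and 3.14. Mgp, matrix Gla protein, an inhibitor of calcification, had day 0 values near 0 (-0.15, -0.28 and -0.36) and day 2 values of 3.14, 3.97 and 3.24.

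Other genes among the 12 largest rises were Il33, an alarmin cytokine (3.86 ± 0.79), Tmem176a and Tmem176b, neighbouring genes for membrane proteins (3.51 ± 0.64 and 3.15 ± 0.39), Olfml3, a secreted glycoprotein (3.24 ± 0.50), Fzd1, a Wnt receptor (3.21 ± 0.65), and Ldhb, the lactate dehydrogenase subunit of oxidative tissues (3.12 ± 0.58). Dcn, the proteoglycan decorin, was the one among them whose direction hung on the day 0 sign. It read -2.72, -3.34 and -0.54 at day 0 and 1.76, 1.58 and 1.70 at day 2. The difference of 3.88 ± 0.68 became -0.52 when the day 0 signs were turned. Il33 (0.88), Olfml3 (1.48) and Fzd1 (1.74) kept their direction there but no longer passed. Nrep, chosen after its values were seen, had no value on day 2 array A and so lay outside that choice; it rose by 4.46 ± 0.77 (adjusted p 0.000857 in limma), and its call was lost with the day 0 signs turned.

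By the same choice the largest falls were in Cemip, Prss23 and Upk1b. Cemip encodes a hyaluronan-degrading protein and read 0.92, 1.25 and 0.27 at day 0 and -4.13, -4.51 and -4.43 at day 2. It fell by 5.17 ± 0.44 (adjusted p 5.05e-07 in limma), 36.0-fold. Prss23, a secreted serine protease, read -0.21 on each day 0 array and -4.17, -5.40 and -3.95 at day 2. Upk1b, a tetraspanin of the urothelial plaque, read 0.15, -0.05 and -0.26 and then -3.89, -4.96 and -3.99. For both, the day 0 arrays sat close to the reference, so the fall did not turn on the sign of day 0.

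The remaining genes of the 12 largest falls were Zyx, the focal adhesion protein zyxin (-3.85 ± 0.70), Gadd45g, a stress and growth arrest gene (-3.54 ± 0.37), Aldh1a1, which makes retinoic acid (-3.20 ± 0.35), Aif1l, an actin-bundling protein (-3.11 ± 0.42), Amotl2, a partner and target of the Hippo effector YAP (-3.02 ± 0.35), Itga3, the laminin-binding integrin alpha 3 (-2.99 ± 0.66), Vat1l (-2.93 ± 0.49), Msln, mesothelin (-2.80 ± 0.66), and Rpia of the pentose phosphate pathway (-2.80 ± 0.43). Itga3 (-1.20 when the day 0 signs were turned) was the one of the 12 falls that no longer passed.

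**Figure D2:**
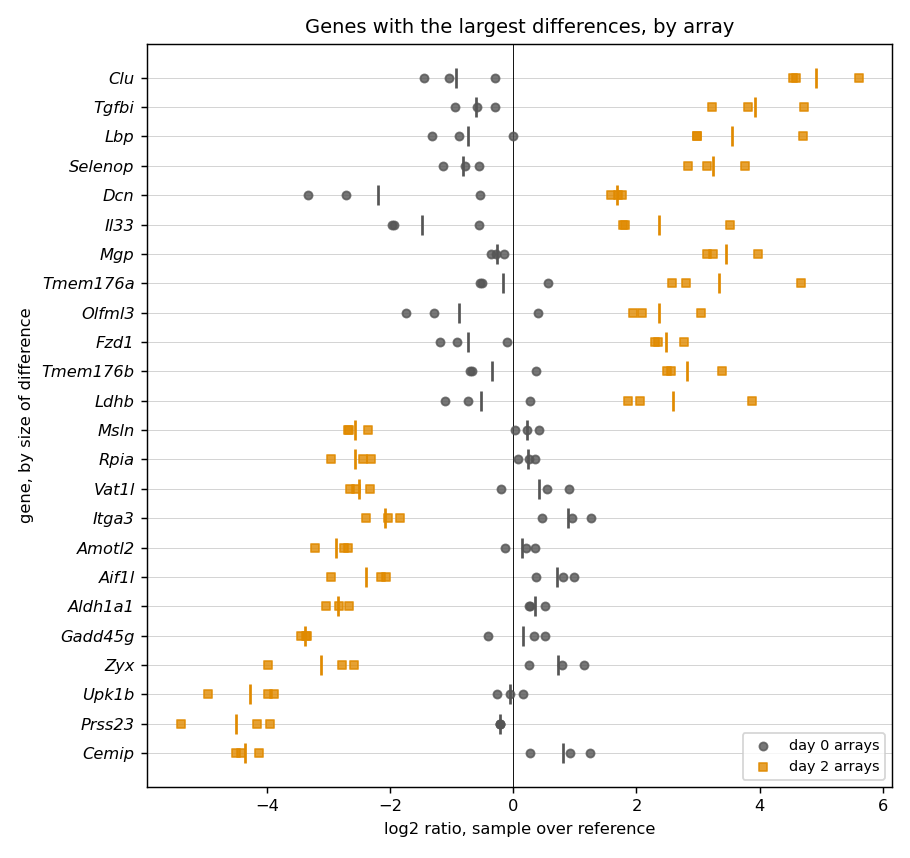
Log2 ratio of sample over reference (horizontal axis) on each array for the 12 genes that rose most and the 12 that fell most; grey circles are the 3 day 0 arrays, orange squares the 3 day 2 arrays, and vertical ticks their means. In Lbp, Il33, Tmem176a and Ldhb day 2 array B lies well above A and C, and in Dcn, Il33 and Olfml3 day 0 array C lies above A and B.

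Genes of cell division were lower at day 2. Of 42 tested members of a list of mitosis and cell cycle genes, 29 fell and 0 rose, with a median difference of -1.39, and of 28 tested DNA replication genes 18 fell and 0 rose, with a median of -0.97. Over all named genes 7.0% were called lower and the median difference was 0.09. The mitosis list had medians of -0.09, 0.03 and 0.06 on the day 0 arrays and -1.42, -1.11 and -1.49 on the day 2 arrays, so its day 0 medians lay at the reference level and its day 2 medians below it. With the day 0 signs turned 23 mitosis and 9 replication genes were called lower; without day 2 array A, day 2 B, day 2 C or day 0 B, 11, 11, 10 and 10 replication genes were; against day 0 array C alone 6 and 0 were, at medians of -1.40 and -1.0. Of the division genes named below, Cks2 (-0.86), Plk1, Cdc6 and Mcm5 were among those whose call was lost with the signs turned, as it was for Pfas, Mthfd1, Ctps, Ddx21 and Nop58.

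Among the mitotic genes, Cks2, a cyclin-dependent kinase subunit, fell by 2.64 ± 0.41 and read 1.37, 1.45 and -0.16 at day 0 against -1.74, -1.49 and -2.02 at day 2. Anln, the cytokinesis scaffold anillin, fell by 2.20 ± 0.41. Mad2l1, of the spindle checkpoint, fell by 1.91 ± 0.40 and Kif2c, a kinesin that takes microtubules apart at kinetochores, by 1.83 ± 0.29. Foxm1, a transcription factor of the late cell cycle, read -0.01, 0.13 and 0.10 at day 0 and -1.36, -1.18 and -1.45 at day 2, with little spread within either day. Cdk1, the mitotic kinase, differed by -1.44 ± 0.36, its partner Ccna2 by -1.32 ± 0.24 and Plk1 by -1.30 ± 0.34, and all of them passed the test. Foxm1, Cdk1, Ccna2 and Plk1 were named after their values were seen. So was Mki67, the proliferation marker, which differed by -1.99 ± 0.72 and did not pass (adjusted p 0.0615 in limma).

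In the replication list, Rrm2, the ribonucleotide reductase subunit of S phase, fell by 2.18 ± 0.50, Cdc6, which loads the replicative helicase, by 1.85 ± 0.34, Mcm5 of that helicase by 1.67 ± 0.30, and Gmnn, the licensing inhibitor geminin, by 1.62 ± 0.30. Mcm5 read 0.43, 0.52 and 0.41 at day 0 and -1.36, -0.98 and -1.30 at day 2. The days did not overlap. Nucleotide and polyamine enzymes named after their values were seen went the same way, with Pfas at -1.97 ± 0.65, Mthfd1 at -1.92 ± 0.38, Odc1 at -1.82 ± 0.32 and Ctps at -1.58 ± 0.35. In Pfas the days overlapped, with 1.72, 0.89 and -1.1 at day 0 and -1.07, -2.28 and -1.05 at day 2. Myc, the growth regulator upstream of many such enzymes, differed by -1.23 ± 0.42 and did not pass (adjusted p 0.0538 in limma), with a value on 2 of the day 2 arrays. Ribosome biogenesis genes had 6 of 22 called lower and 0 higher, beside 7.0% of named genes called lower. Among the 6 were the nucleolar helicase Ddx21 (-1.71 ± 0.27) and Nop58 (-1.42 ± 0.41). Of this list 2, 3 and 2 were called lower without day 2 array B, day 0 A and day 0 B. The cytosolic ribosomal proteins themselves had 0 of 56 called by limma and a median of 0.10.

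Among genes of growth arrest more rose than fell. Of 17 tested of 35 listed, 8 rose and 1, Gadd45g, fell, with a median of 0.89, beside 10.2% of named genes called higher. With the day 0 signs turned the counts were 4 and 2 at a median of 0.3, and against day 0 array C alone the median was 0.78. With values required only at days 0 and 2, 20 members were tested, 8 rose and 1 fell, and the median was 0.32. Trp53inp1, a p53 target that promotes arrest and autophagy, rose by 2.92 ± 0.25 with values of -1.41 and -1.29 at day 0 (array C had none) and 1.20, 1.88 and 1.62 at day 2. Pnrc1 rose by 2.90 ± 0.51, Klf9, a glucocorticoid-induced repressor, by 2.34 ± 0.35. Sesn1, a sestrin that restrains mTORC1 (2.30 ± 0.36), the antiproliferative gene Btg1 (1.95 ± 0.27) and the FOXO transcription factor Foxo3 (1.07 ± 0.32) also rose, whereas Txnip, at 1.36 ± 0.54, did not pass (adjusted p 0.0845 in limma). These 4 genes were picked out after their values were seen. The calls of Trp53inp1 (0.21) and Pnrc1 were lost with the day 0 signs turned, and 5 genes of the list were called higher without day 2 array A or without day 0 array B.

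Day 1 was used to place these differences in time. Between day 1 and day 2 the test called 64 units, 0.602% of those tested, 22 higher (0.207%) and 42 lower (0.395%). Named genes among them were 10 higher and 22 lower. Of the 22 lower ones, 10 belong to the 42 tested mitosis genes, whose median was -1.04 below day 1. Each of the 3 letters correlated across days 1 and 2, and with the letter as a block 42 units were called higher and 73 lower. The count of lower units was small without some arrays: 1 without day 2 A, 4 without day 2 C and 7 without day 1 B, and 17 and 18 without day 1 A and C. The count of higher units was 5 to 12 over the 6 arrays left out in turn.

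The 22 genes had medians of -0.12, 0.09 and 0.07 on the day 0 arrays, -0.26, 0.11 and -0.32 on the day 1 arrays, and -1.80, -1.32 and -1.80 on the day 2 arrays. Days 0 and 1 overlapped, and day 2 lay below both. The largest steps were in Kif2c, which differed from day 1 by -1.85 ± 0.29, Ccnb2, cyclin B2, by -1.79 ± 0.37, Kif22, a chromosome-arm kinesin, by -1.68, and Bub1b, the checkpoint kinase BubR1, by -1.68. Nusap1, Ncapd2 of condensin, Ckap2l and Spag5, all of the spindle or chromosomes, followed at -1.63, -1.58, -1.48 and -1.48. Nusap1 passed this test but not that against day 0 (-1.03 ± 0.37, adjusted p 0.0584 in limma). Outside the naming rule, and chosen after their values were seen, Tacc3, Nuf2, Arhgap11a, Tpx2, Kif23, Ska1, Cdca5, Ckap2, Bora, Foxm1, Stmn1 and Zwilch of the spindle and mitosis, the phosphate transporter Slc20a1 and the pyrophosphatase Ppa1 complete the 22.

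**Figure D3:**
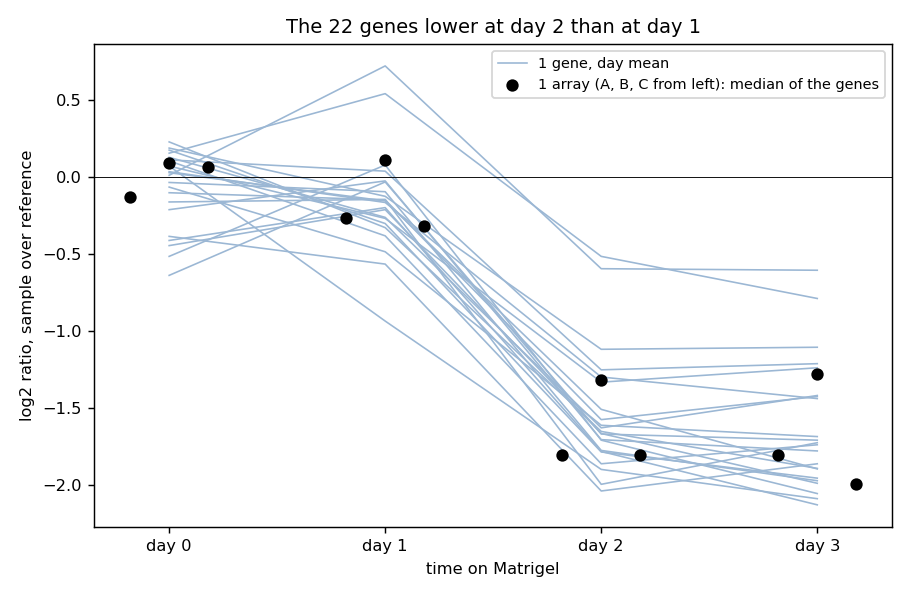
The 22 genes called lower at day 2 than at day 1 are shown over days 0 to 3 (horizontal axis) as log2 sample over reference; each line joins 1 gene's means of 3 arrays, and each black point is the median of the genes on 1 array. The day 2 points lie at -1.80, -1.32 and -1.80 and the day 3 points at -1.80, -1.28 and -1.99; these genes were chosen for being lower at day 2 than at day 1, so that step is a description.

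The promoters of these genes are shown because genes of the late cell cycle commonly carry a CCAAT box and the cell cycle genes homology region, whose core is TTTGAA. RefSeq promoters of GRCm38.p6 were in the table for 16 of the 22 genes, and the 250 bases before each start were searched on both strands. TTTGAA was present in 8 of the 16 (50.0%) and CCAAT in 10 (62.5%), against 12.1% and 40.6% of the 4638 tested genes with a promoter and 18.3% and 37.5% of all 27025 genes in the table. For the mitosis genes lower at day 2 than at day 0, 25 of 29 matched, with TTTGAA in 9 (36.0%) and CCAAT in 18 (72.0%), and for the replication genes 16 of 18 matched, with 3 and 12. CCAAT and TTTGAA can share a letter where they adjoin, and a match is a description of the sequence only. Below are the 4 of the 8 largest falls from day 1 whose window held both motifs, written 5′ to 3′ on the gene's strand and ending at the base before the start, with both motifs, on either strand, in capitals; no match overlaps another in them. They are Ckap2l, chr2:129297213-129297462, Kif22, chr7:127042421-127042670, Ncapd2, chr6:125191587-125191836, and Ccnb2, chr9:70421555-70421804, all on the minus strand.
Ckap2l: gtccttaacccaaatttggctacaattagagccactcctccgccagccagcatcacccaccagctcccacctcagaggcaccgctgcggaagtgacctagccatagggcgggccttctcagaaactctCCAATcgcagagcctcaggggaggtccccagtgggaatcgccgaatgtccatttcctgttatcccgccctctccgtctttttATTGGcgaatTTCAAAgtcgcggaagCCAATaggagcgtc
Kif22: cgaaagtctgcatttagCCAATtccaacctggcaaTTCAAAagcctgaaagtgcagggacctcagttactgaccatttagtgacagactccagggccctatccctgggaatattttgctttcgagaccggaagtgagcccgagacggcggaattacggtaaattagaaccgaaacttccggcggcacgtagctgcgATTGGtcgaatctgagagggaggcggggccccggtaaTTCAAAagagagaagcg
Ncapd2: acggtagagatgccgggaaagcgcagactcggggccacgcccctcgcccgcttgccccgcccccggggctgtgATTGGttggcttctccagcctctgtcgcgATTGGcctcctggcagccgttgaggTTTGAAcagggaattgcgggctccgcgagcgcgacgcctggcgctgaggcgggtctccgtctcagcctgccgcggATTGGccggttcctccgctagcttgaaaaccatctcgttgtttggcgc
Ccnb2: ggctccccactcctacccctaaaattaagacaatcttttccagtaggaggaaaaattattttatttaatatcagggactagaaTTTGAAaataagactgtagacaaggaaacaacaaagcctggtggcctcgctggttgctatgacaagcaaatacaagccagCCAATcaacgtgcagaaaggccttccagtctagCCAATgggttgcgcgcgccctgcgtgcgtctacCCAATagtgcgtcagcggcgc
In Ckap2l the homology region core and a CCAAT box lie within the last 40 bases before the start, and in Kif22 a core begins 17 bases before it.

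Fewer genes rose from day 1 to day 2. Of the 10 called, the 8 first named here had values on all 6 arrays of those days without overlap. Clu stood at 1.97, 2.34 and 1.93 on the day 1 arrays and rose again by 2.83 ± 0.54. Tgm2, the crosslinking enzyme transglutaminase 2, read -0.25, -1.40 and 0.06 at day 1 and then 1.62, 1.86 and 2.02, a rise of 2.37. Sprr2a3, of the cornified envelope, rose by 2.17, Igf1, the growth factor, by 1.62, Rsrp1 by 1.54, Ccdc80, a matrix-associated protein, by 1.46, and Enpp5 and Thsd4 by 1.35 each. The other two, chosen after their values were seen, were Phyhd1, which had no value on day 2 array B (2.39 ± 0.46, adjusted p 0.0176 in limma), and Trp53inp1 (1.10 ± 0.23). Igf1 read -1.08, -1.21 and -0.95 at day 1 and 0.67, 0.36 and 0.59 at day 2, while its day 0 values of -0.61, 0.26 and 0.59 overlapped those of day 2; it did not pass against day 0. Between day 2 and day 3 limma called 0 units, 0.0% (79 at an unadjusted p under 0.05), also under each alternative run, so no gene was named there.

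Lysosomal genes rose together. Of 29 tested of 53 listed, 16 rose and 0 fell, with a median of 1.23, beside 10.2% of named genes called higher. Their medians were -0.25, -0.36 and 0.01 on the day 0 arrays and 0.87, 1.18 and 1.01 on the day 2 arrays, and no array of one day reached the other. With the day 0 signs turned 8 were called higher at a median of 0.71, and against day 0 array C alone 3 at a median of 0.95.

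Among the proteases, Ctsa, the protective protein of the lysosome, rose by 2.29 ± 0.37, from -1.09, -0.80 and 0.06 to 1.72, 1.83 and 1.49. Ctsb, cathepsin B, rose by 2.14 ± 0.27, from -0.24, -0.59 and -0.04 to 1.62, 2.17 and 1.75 (adjusted p 2.7e-05 in limma). Lamp2, a glycoprotein of the lysosomal membrane, rose by 2.03 ± 0.26, and Hexa, the subunit of hexosaminidase lost in Tay-Sachs disease, by 2.02 ± 0.27. Cln3, Ctsl and Ctsd, named after their values were seen, rose by 2.01 ± 0.36, 1.82 ± 0.40 and 1.68 ± 0.48; Cln3 had no value on day 0 array C. The 3 cathepsins A, L and D shared a day 0 pattern in which array C lay above A and B, and with the day 0 signs turned the calls of these 3 and of Cln3 were lost (Ctsa at 1.07).

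The proton pump that acidifies the lysosome, the vacuolar ATPase, had 4 of 11 members called higher and 0 lower: Atp6ap2 (1.39 ± 0.35), Atp6v1e1 (1.27 ± 0.37), Atp6v0d1 (1.07 ± 0.26) and Atp6ap1 (0.88 ± 0.28). These 4 calls were lost with the day 0 signs turned, where the list median went from 0.83 to 0.20, and against day 0 array C alone (0.25), and they were lost without day 0 array A too; 2, 2 and 1 were called without day 2 A, day 2 B and day 0 B. Autophagy and mitophagy genes had 9 of 18 called higher and 0 lower, with a median of 0.67. For comparison with both lists, 10.2% of all named genes were called higher and 7.0% lower. Bnip3 and Bnip3l, receptors that mark mitochondria for removal, rose by 2.69 ± 0.63 and 1.90 ± 0.26, Map1lc3b, the LC3 protein of autophagosomes, by 2.06 ± 0.31, and Pink1, the mitochondrial damage kinase, by 1.77 ± 0.27. Pink1 read -0.22, 0.07 and -0.26 at day 0 and 1.40, 2.13 and 1.38 at day 2. The cargo receptor Nbr1 (1.70 ± 0.29) and the initiating kinase Ulk1 (0.94 ± 0.20) were picked out after their values were seen. With the day 0 signs turned, 2 autophagy genes were called higher and 1 lower, with Bnip3 (0.96), Bnip3l, Map1lc3b and Ulk1 no longer called higher, and against day 0 array C alone 2 and 0.

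The E-box TCACGTGA, the palindromic core of the motif bound by TFEB, a regulator of lysosomal genes, was searched in the same windows. It was present in 3 of the 14 lysosomal genes higher at day 2 that had a promoter (21.4%), in 2.11% of tested genes with a promoter and in 0.907% of all genes in the table. The 3 are printed to show where it sits, with the motif in capitals: Ctsd, chr7:142387828-142388077 on the minus strand, Ctsa, chr2:164833523-164833772 on the plus strand, and Cln3, chr7:126583237-126583486 on the minus strand. For Ctsa and Cln3 the window belongs to the second of 2 listed starts, and the window of the other start had no match.
Ctsd: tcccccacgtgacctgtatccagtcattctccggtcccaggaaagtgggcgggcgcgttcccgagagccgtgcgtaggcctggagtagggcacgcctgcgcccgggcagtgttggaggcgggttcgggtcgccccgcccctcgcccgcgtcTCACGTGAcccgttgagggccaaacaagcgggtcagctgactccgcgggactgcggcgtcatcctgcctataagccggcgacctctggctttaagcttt
Ctsa: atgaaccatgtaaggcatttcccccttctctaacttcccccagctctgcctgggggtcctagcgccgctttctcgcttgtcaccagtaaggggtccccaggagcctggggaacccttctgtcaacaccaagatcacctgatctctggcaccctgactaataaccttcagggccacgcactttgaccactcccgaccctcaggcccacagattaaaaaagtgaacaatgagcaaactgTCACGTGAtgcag
Cln3: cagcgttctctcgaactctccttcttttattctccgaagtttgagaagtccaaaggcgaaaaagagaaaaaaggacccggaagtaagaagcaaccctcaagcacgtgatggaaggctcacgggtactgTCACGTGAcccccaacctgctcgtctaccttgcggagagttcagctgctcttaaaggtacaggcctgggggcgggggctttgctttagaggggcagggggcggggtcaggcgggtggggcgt
The motif begins 99, 13 and 122 bases before the start in Ctsd, Ctsa and Cln3.

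**Figure D4:**
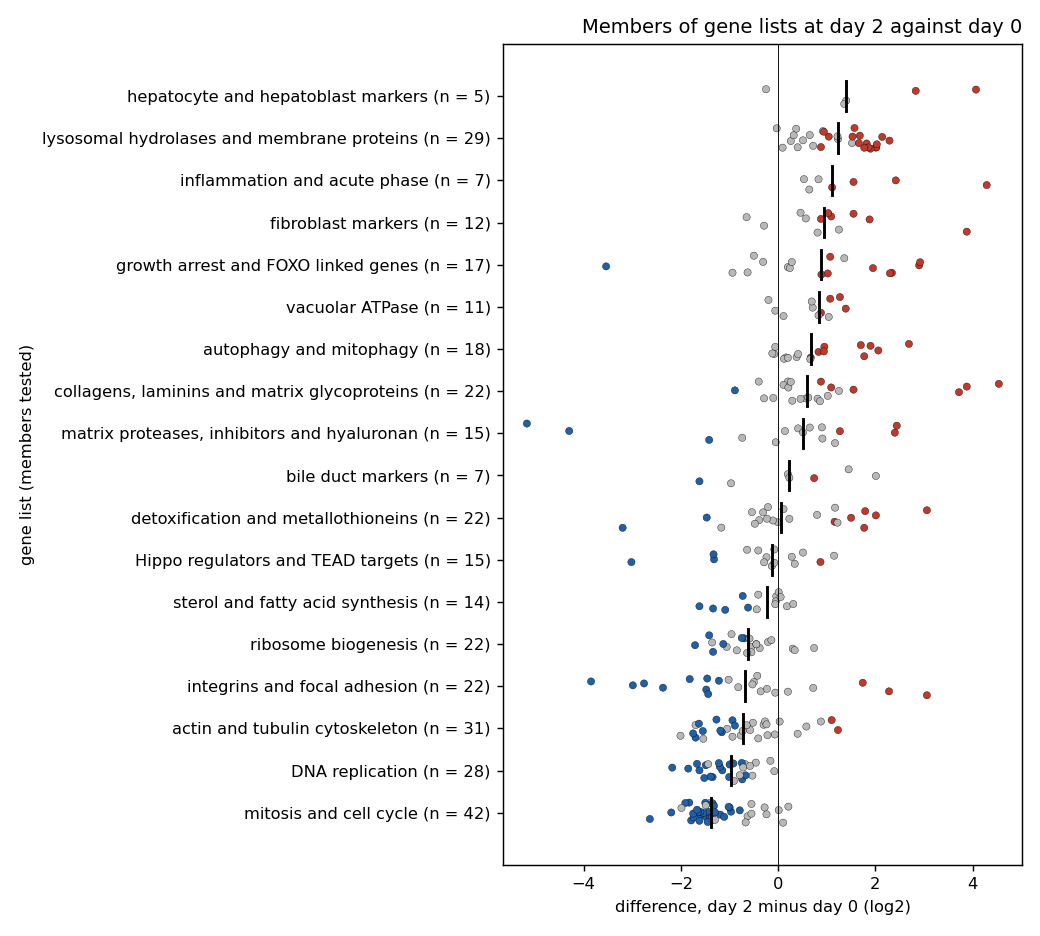
Each point is 1 tested member of a gene list, placed by its difference between day 2 and day 0 (log2, horizontal axis), with red for members called higher, blue for members called lower and grey for the rest; black ticks are list medians, and points are spread vertically at random for legibility. Shown are the lists with at least 5 members tested and at least 25% of them called: the mitosis and replication lists hold no called member above 0, and the lysosome, vacuolar ATPase, autophagy and inflammation lists hold none below 0.

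In the adhesion and cytoskeleton lists more members fell than rose, and their integrins split. Of 22 tested integrin and focal adhesion genes 9 fell and 3 rose, with a median of -0.68, and of 31 cytoskeleton genes 9 fell and 2 rose, with a median of -0.73, beside 7.0% of named genes called lower. Dropping either array B of day 2 or array A of day 0 left 5 adhesion genes called lower. Zyx read 0.79, 1.14 and 0.26 at day 0 and -2.59, -3.99 and -2.78 at day 2. Itga3 read 0.96, 1.26 and 0.46 and then -2.03, -2.40 and -1.85. In both genes day 0 array C lay nearest to day 2. Cav1, the caveolar coat protein, differed by -2.76 ± 0.36 from day 0 values at the reference level (-0.06, -0.11 and -0.06). The actin-linking proteins Actn1 and Vcl, alpha-actinin 1 and vinculin, picked out after their values were seen, differed by -2.37 ± 0.73 and -1.82 ± 0.45.

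The 3 that rose encode matrix-binding proteins of the cell surface. Itgb3, the beta 3 subunit of the vitronectin receptor, rose by 3.06 ± 0.49, reading -0.70 and 0.63 at day 0 (array B had no value) and 2.69, 3.60 and 2.79 at day 2. Itgb5, beta 5, rose by 2.28 ± 0.42, from -1.62, -1.59 and 0.35 to 1.41, 1.32 and 1.26, and Sdc1, syndecan 1, by 1.74 ± 0.29; both were named after their values were seen. Itgb5 was below the reference on day 0 arrays A and B but above it on C. With the day 0 signs turned 3 genes of the list were called higher and 5 lower, with Itgb5 (0.37), Itga3 and Actn1 no longer called; against day 0 array C alone 0 and 1 were.

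In the cytoskeleton list, Tpm2, a tropomyosin, fell by 1.75 ± 0.42, Lmna, the nuclear lamin A/C, by 1.70 ± 0.27, Tubb6, a beta tubulin, by 1.63 ± 0.41 and Myl12b, a myosin regulatory light chain, by 1.55 ± 0.38. Lmna read 0.06, 0.79 and 0.74 at day 0 and -1.32, -0.93 and -1.26 at day 2, without overlap. The 2 that rose, Arpc1a (1.10 ± 0.31) and Arpc1b (1.23 ± 0.37), named after their values were seen, encode alternative subunits of the ARP2/3 complex that branches actin. Actb, the common beta-actin, also added after its values were seen, differed by -2.01 ± 0.84 and did not pass (adjusted p 0.106 in limma), its day 0 values spreading from -0.67 to 1.40. Smtn, the actin-binding smoothelin of contractile cells, fell by 1.61 ± 0.25. Turning the day 0 signs ended the calls of Tpm2, Lmna, Arpc1a and Arpc1b. The 9 genes called lower became 5 without day 2 array A, 4 without day 2 B, 4 without day 0 B and 1 against day 0 array C alone.

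Hippo regulators and TEAD targets had 3 of 15 lower and 1 higher, with a median of only -0.13. Over all named genes 7.0% were called lower and 10.2% higher. Tead1, the DNA-binding partner of YAP, differed by -1.33 ± 0.31 and Lats2, the kinase that restrains YAP and is itself a target, by -1.32 ± 0.41, beside Amotl2 above, while Mob1b, a kinase cofactor, rose by 0.87 ± 0.27. Vgll3, a TEAD cofactor, and Cavin2, a caveolar coat gene, both singled out after their values were seen, differed by -2.09 ± 0.42 and -2.20 ± 0.42. Epithelial junction genes had 3 of 15 lower and 0 higher, with a median of -0.57, and 1 lower with the day 0 signs turned. The 3 were Gja1, the gap junction protein connexin 43 (-2.09 ± 0.35), Cgn, cingulin of tight junctions (-1.72 ± 0.44), and Pard6b of the polarity complex (-1.57 ± 0.38). Lats2, Mob1b, Cavin2, Cgn and Pard6b were not called with the day 0 signs turned.

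Of all named genes, 10.2% were called higher and 7.0% lower. Among matrix genes, 6 of 22 collagens, laminins and matrix glycoproteins rose and 1 fell, with a median of 0.59. Besides Tgfbi, Dcn and Mgp, they included Col3a1, collagen III, at 1.55 ± 0.44, reading -0.98, -0.87 and 0.05 at day 0 and 1.16, 0.46 and 1.23 at day 2. The day 0 level was low on A and B only. With the day 0 signs turned 3 were called higher at a median of 0.11, Col3a1 (0.35) not among them, and against day 0 array C alone 2 at 0.22. Without any of day 2 A, day 2 C, day 0 A or day 0 B, 3 were called higher. Matrix proteases and their inhibitors had 3 higher and 3 lower of 15, with Adam12, a metalloprotease (2.44 ± 0.38), and Plat, tissue plasminogen activator (2.40 ± 0.59), opposite to Cemip, Prss23 and Timp3, a metalloprotease inhibitor named after its values were seen (-1.42 ± 0.36). Plat (1.05) was not called with the day 0 signs turned.

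Markers of fibroblasts were higher in part, beside 10.2% of named genes called higher and 7.0% lower. The list, which shares Dcn, Col1a2, Col3a1 and Col5a1 with the matrix list, had 6 of 12 tested members called higher and 0 lower, and the other 13 of its 25 genes were not tested. Its median was -0.68, -0.55 and 0.09 on the day 0 arrays and 0.68, 0.47 and 0.66 on the day 2 arrays. Pdgfrb, a receptor of mesenchymal cells, rose by 1.88 ± 0.45 and Prrx1, a mesenchymal transcription factor named after its values were seen, by 1.03 ± 0.26, whereas Vim, vimentin, differed by -0.65 ± 0.42 (adjusted p 0.305 in limma). With the day 0 signs turned 0 were called higher and 1 lower by limma at a median of 0.14, and against day 0 array C alone 0 were called at 0.52. Without day 2 A, day 2 C, day 0 A or day 0 B, 2, 3, 2 and 2 were called higher. The cells had been grown on a fibroblast feeder layer that was stripped before use, and its part in these values was not tested. Endothelial markers had 1 member tested, Cdh5, and blood markers 3, of which 0 were called by limma.

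The signalling lists held called genes at shares not far from those of all named genes, of which 10.2% were called higher and 7.0% lower. In the TGF-beta and BMP list 3 of 25 rose and 3 fell. Bmp4, a ligand that promotes hepatoblast fate, read -0.23, -0.17 and 0.01 at day 0 and -2.34, -2.0 and -2.29 at day 2, a fall of 2.08 ± 0.51. Fst, follistatin, which traps activins, fell by 1.44 ± 0.29, and Smad5, which carries BMP signals, rose by 1.38 ± 0.24. The BMP target genes Id2 and Id3 stood at -0.25 ± 0.59 and 0.20 ± 0.35 and did not pass. In the Wnt list 3 of 18 rose, the receptors Fzd1 (3.21 ± 0.65) and Fzd3 (1.00 ± 0.30, with no value on day 0 array B) and the kinase Csnk1a1 (0.88 ± 0.21), and the receptor Fzd8 fell by 0.92 ± 0.22. Ctnnb1, beta-catenin, at 0.81 ± 0.32, did not pass (adjusted p 0.0825 in limma). The Notch list had 2 of 12 higher, Dtx4, an E3 ligase of the pathway (2.87 ± 0.43), and Hes6 (1.78 ± 0.32). Of the signalling genes named here as changed, Smad5, Fzd1, Fzd3 and Csnk1a1 were not called with the day 0 signs turned.

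Only 7 of 38 listed acute phase and cytokine genes could be tested. Of these 4 were higher and 0 lower, with a median of 1.11, beside 10.2% of named genes called higher. Besides Lbp, the 4 were Socs3, the feedback inhibitor of interleukin 6 signalling (2.42 ± 0.45), Stat3, its transcription factor (1.55 ± 0.33), and Il6st, the shared receptor gp130 (1.11 ± 0.36). Socs3 read -0.82, -0.64 and 0.17 at day 0 and 1.61, 2.96 and 1.40 at day 2, with array B highest. With the day 0 signs turned 4 were called higher at a median of 1.07, but Il6st (0.91, adjusted p 0.118 in limma) was not one of them; against day 0 array C alone 1 was. Osmr, the oncostatin M receptor that pairs with gp130, and the complement genes Serping1 and C1ra, all named after their values were seen, rose by 2.00 ± 0.58, 2.24 ± 0.30 and 2.21 ± 0.39, calls that were lost with the signs turned.

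Metabolic lists were mixed, beside 10.2% of named genes called higher and 7.0% lower. Sterol and fatty acid synthesis had 5 of 14 lower and 0 higher. Its median was -0.24, -0.41 against day 0 array C alone and -0.06 with values required only at days 0 and 2. Among the 5 were Idi1 (-1.62 ± 0.37), Sqle (-1.34 ± 0.30) and Msmo1 (-1.09 ± 0.21) of cholesterol synthesis and Acaca (-0.73 ± 0.21) of fatty acid synthesis. Of this list 3 were called without day 2 array A, day 2 C or day 0 B. Detoxification genes had 6 of 22 higher and 2 lower: Mgst1 (3.06 ± 0.35) and the metallothioneins Mt1 (2.01 ± 0.44) and Mt2 (1.79 ± 0.46) rose, as did Gstm1 and Ephx2, named after their values were seen, while Aldh1a1 and the bile salt and drug exporter Abcc3 (-1.47 ± 0.23, also named after its values were seen) fell. Without day 2 array B, day 0 A or day 0 B, 3 were called higher. Turning the day 0 signs gave 3 higher and 3 lower, and the calls of Gstm1 and Ephx2 were lost. Near-identical family members such as the Mt and Gstm genes may share probe signal and are uncertain singly. Of 18 genes of glycolysis and the hypoxia response 4 rose, Ldhb, Bnip3, Bnip3l and Hif1a (1.51 ± 0.32). With the signs turned 1 gene of that list was called higher and 1 lower, and Bnip3, Bnip3l and Hif1a (0.23) were not called; against day 0 array C alone 1 was called higher. Oxidative phosphorylation had 2 higher and 2 lower of 39, with Cycs, cytochrome c, at -1.44 ± 0.21.

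Lists of general cell upkeep held few called genes beside the 17.2% of named genes called either way. Translation factors had 0 of 24 and the proteasome 0 of 30 called by limma, with medians of -0.19 and -0.03. Chaperones had 1 of 36 higher, Derl1 of the endoplasmic reticulum (0.67 ± 0.20), and 2 lower, Hsph1 (-1.13 ± 0.38) and the chaperonin subunit Cct7 (-0.77 ± 0.26). Splicing factors and helicases had 1 of 38 higher, Ddx17 (1.17 ± 0.28), and 3 lower, among them the mRNA export helicase Ddx39a (-1.60 ± 0.24). Chromatin genes had 2 of 41 higher, among them the deacetylase Hdac5 (1.52 ± 0.39), and 3 lower, among them the histone chaperone Asf1b (-1.12 ± 0.28) and the histone variant H2az1 (-0.91 ± 0.23). Interferon response genes had 1 of 16 called, Usp18 (-1.41 ± 0.34), and immediate early genes 1 of 7, the mRNA decay factor Zfp36l1 (1.83 ± 0.34). Of the genes named here, Zfp36l1 (0.03), Derl1 (0.10), Hsph1 (-0.18), Cct7 (-0.70), Ddx17 (0.21), Hdac5 (1.19) and Usp18 (-1.0) were not called with the day 0 signs turned.

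**Figure D5:**
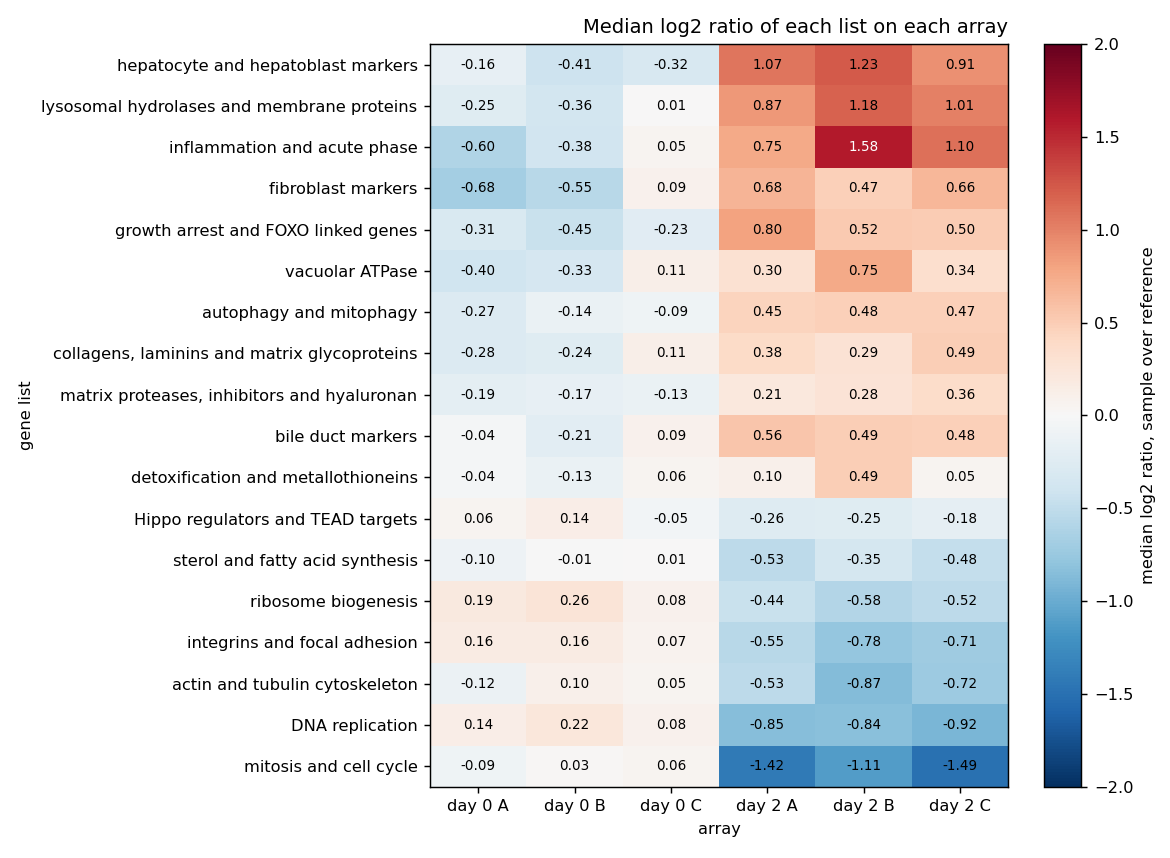
Median log2 ratio of sample over reference of the tested members of each list (rows) on each of the 6 arrays (columns); red is above and blue below the reference. The mitosis row is near 0 on all day 0 arrays (-0.09 to 0.06), whereas the fibroblast row is at -0.68 and -0.55 on day 0 arrays A and B and at 0.09 on C.

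Few liver markers could be tested, 5 of 48 hepatocyte and hepatoblast genes and 7 of 28 bile duct genes. Selenop and the imprinted fetal RNA H19 (2.83 ± 0.84) were called higher. H19 read 0.03, -0.35 and 0.25 at day 0 and 2.05, 3.72 and 2.65 at day 2; 3 of its 4 features had values to compare and all 3 were higher. Afp, alpha-fetoprotein of the fetal liver, read -0.37, -0.80 and -0.56 at day 0 and 0.95, 0.92 and 0.60 at day 2. Igf2, the fetal growth factor, read -0.16, -0.41 and -0.32 and then 1.07, 1.23 and 0.91. Neither overlapped between the days, but Afp (1.40 ± 0.69, adjusted p 0.172) and Igf2 (1.36 ± 0.59, adjusted p 0.115) did not pass in the limma fit, whose error is shared over all 8 days. Both passed with only the compared days fitted, with arrays scaled to 1 spread, and with array C of each of days 4 to 7 left out, and 4 of the 5 tested genes were then called higher. These settings also raised the count of all units called higher from 963 to 1726, 1878 and 1749. With the day 0 signs turned Afp stood at 0.25 and Igf2 at 0.78, and neither passed. Nor did either pass with the reference channel as the baseline. Apob, the lipoprotein apolipoprotein B, stood at -0.25 ± 0.18.

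Among the bile duct genes Anxa4, annexin A4, rose by 0.74 ± 0.24 and Gprc5a, a retinoic acid-induced receptor, fell by 1.62 ± 0.36, the former without a value on day 2 array A and the latter without one on day 0 array A. Neither was called with the day 0 signs turned (0.57 and -0.70). Bicc1, an RNA-binding protein of ducts named after its values were seen, went from 0.00, -0.49 and -0.57 to 1.27, 2.30 and 1.41 and, at 2.01 ± 1.00, did not pass (adjusted p 0.177 in limma). Krt7, Krt19, Jag1 and Cdh1 had too few values for the test across all days. Krt19, a keratin of duct cells, read -0.68 and 0.10 at day 0 and -0.33, -0.45 and 0.02 at day 2, so its days overlapped; with values required only at days 0 and 2 it differed by 0.03 ± 0.40 (adjusted p 0.973 in limma).

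The test required values on at least 2 arrays of each of the 8 days. It leaves out genes with too few values on any of those days, and why values are missing was not tested. Requiring them only at days 0 and 2 added 2361 units, of which 69 (2.92%) were called higher and 308 (13.0%) lower. Among those added, and chosen after their values were seen, Lmnb1, lamin B1, differed by -2.38, Cnn1, calponin, by -2.09 and Cdh3, P-cadherin, by -2.02, while Gda, guanine deaminase, differed by 2.89. Lmnb1 read 0.02, 0.46 and 0.34 at day 0 and -2.23, -2.06 and -2.03 at day 2.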

How the data were processed

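The authors deposited 1 table of log2 ratios with 24157 features on 24 two-colour arrays. The sources used here do not state base, numerator, scanner, background correction, normalization or why cells are empty. Column medians as deposited were 0.0118, -0.0052 and 0.0005 at day 0 and 0.0027, -0.0025 and -0.0022 at day 2; values per array of those days numbered 15310 to 21898. Each array was centred on its median. Symbols came from the platform annotation (13319 features with 1 symbol, 589 with several, 10249 not listed), 13290 of them updated through Entrez identifiers; features of a symbol were averaged, and features with no single symbol kept apart.

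The model (lmFit, then eBayes, in limma 3.58.1 under R 4.3.3) covered 24 arrays, 3 for each of 8 days, and the units with values on at least 2 arrays of every day, with contrasts of day 2 against days 0 and 1 and of day 3 against day 2, Benjamini-Hochberg adjustment over all units, and 2-sided tests at 0.05. The number of arrays limits the precision (median SE 0.312). On data simulated for day 2 against day 0 with 10639 units, of which 200 were changed, the fit recovered 32% of changes of size 1 and 86% of size 2, with 7 false of 125 calls. The simulated noise was independent for each unit and array. These rates therefore do not cover variation that units share on an array, as the day 0 arrays show. Same-letter arrays deviated together between days 1 and 2 (0.394, 0.419 and 0.370) and days 2 and 3 (0.359, 0.294 and 0.285), a pairing read from the data.

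Named were the 12 largest rises and 12 largest falls against day 0 among called genes with 6 values and no overlap, up to 4 called genes per list, a fixed list of liver and signalling genes whatever their p, and the 8 largest each way against day 1 by the same rule over its 6 arrays; other names are marked as chosen after their values were seen. Some of these genes are given only in a count. Members and lists were chosen with earlier results of these data known. Alternatives were other centring, scaling, arrays, filters, features, signs and baselines.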

Additional observations from a re-analysis of the deposited data

Results flagged for a closer look

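The differences from day 0 at day 1 and at day 2 were not the same for 64 units by the limma test of day 2 against day 1, with 22 higher and 42 lower at day 2, among them 10 mitosis and cell cycle genes that were lower. The 8 named by the same rule as lower at day 2 differed from day 1 by -1.85 (Kif2c), -1.79 (Ccnb2), -1.68 (Kif22), -1.68 (Bub1b), -1.63 (Nusap1), -1.58 (Ncapd2), -1.48 (Ckap2l) and -1.48 (Spag5) on the log2 scale. The 8 genes named as most raised, which had values on all 6 arrays of those days without overlap, differed by 2.83 (Clu), 2.37 (Tgm2), 2.17 (Sprr2a3), 1.62 (Igf1), 1.54 (Rsrp1), 1.46 (Ccdc80), 1.35 (Enpp5) and 1.35 (Thsd4). Without day 2 array A the counts were 5 higher and 1 lower.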

How the results depend on the processing

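Between day 2 and day 0 (963 higher, 855 lower), the counts were 1878 and 1742 with arrays scaled to 1 spread, 1726 and 1604 with only the compared days fitted, 1749 and 1563 when array C of each of days 4 to 7 was dropped, 532 higher with the day 0 signs turned, 1301 lower with the reference channel as baseline, 70 and 76 with day 0 arrays A and B left out, and 494 to 1126 and 355 to 1045 leaving out 1 array. Between day 2 and day 1 (22 and 42) they were 65 and 95, 207 and 258, and 65 and 112 under the first 3 of these, 42 and 73 with the replicate block, and 5 to 12 and 1 to 28 leaving out 1 array. Between day 3 and day 2 each setting run gave 0 calls. For these counts the cause was not tested.

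Letters did not pair day 0 with day 2 (same-letter deviations correlated at 0.178, 0.007 and -0.088); the replicate block gave 1294 higher and 1099 lower there. Of the 168 named genes called against day 0, 94 were still called the same way with the day 0 signs turned, 71 were no longer called and 3 turned in sign: Dcn (-0.52), Ndufa12 (0.32) and Utp4 (0.07). With only the sign of day 0 array C turned, 6 of the 168 were no longer called and 0 turned in sign. With C as the lone day 0 array, 45 of 162 were still called and none of those 162 turned in sign. Of genes that had not passed, Apob went to 0.05, Ctnnb1 to -0.11 and Id3 to -0.17 with the signs turned, and Id2 to 0.11 and Igf1 to -0.05 with C alone as day 0. The median of the detoxification list, 0.05, ranged from -0.11 (without day 2 array B) to 0.22 leaving out 1 array, with -0.05 without day 0 array A, and was -0.09 with C alone as day 0.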
